A study of Mus musculus with 4 samples.

Results

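In the fetal mouse ovary at embryonic stage E13.5, about as many germ cells had no captured transcript of Stra8 as had one. Stra8 is the gene that marks the start of meiosis. The 385 germ cells without a captured Stra8 transcript are described here. They are 385 of 783 germ cells (49.2%, exact binomial 95% interval 45.6 to 52.7) in a library of 4842 cells, and of 19387 cells in the whole series. A cell was taken as a germ cell when it had at least 1 unique molecular identifier (UMI, 1 captured transcript molecule) of at least 3 of the 6 germ cell genes Dazl, Ddx4, Dnd1, Mael, Dppa5a and Mov10l1 and none of Alas2, a gene of red cell precursors. It was taken as lacking Stra8 when it had 0 UMIs of that gene.

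The series holds 4 droplet single-cell libraries (10x Genomics 3′ kit, version V2) of XX gonads from untreated C57BL/6 embryos, 1 for each of the stages E11.5 to E14.5 at steps of a day. How many embryos were pooled is not given in the sources used here. The 398 E13.5 germ cells with Stra8 and the 3900 E13.5 somatic cells (at most 1 of the 6 genes) come from the same library as the cells described. The germ cells of the other stages, chosen by the same marker rule whatever their Stra8, numbered 242 at E11.5, 668 at E12.5 and 2390 at E14.5. Stage and library cannot be told apart, cells of 1 library are not replicates, and no test was possible. Every interval below is a 95% interval that covers counting error only.

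Germ cells of the fetal ovary first divide by mitosis as oogonia and express genes of the pluripotency network. In response to retinoic acid and BMP signals they switch on Stra8, whose protein acts as a transcription factor with MEIOSIN at the promoters of meiotic genes. MEIOC and YTHDC2 act on transcripts in the same switch. The chromosomes then take up meiosis-specific cohesin subunits (REC8, SMC1B, STAG3) and form the synaptonemal complex (SYCP1, SYCP3 and partners), in which recombination takes place. The switch is known to be asynchronous between cells of 1 ovary.

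The cells without Stra8 held more UMIs per cell than those with it. They held 10444304 UMIs, with a median of 26041 per cell (range 5660 to 61636) and a median of 4547 genes detected. The median of the cells with Stra8 was 22918.5 UMIs. When the 783 germ cells were sorted into 5 groups of equal size by their UMI total, the share without Stra8 was 35.0% (27.6 to 43.0) in the shallowest group, then 41.7%, 54.1% and 55.1%, and 59.9% (51.8 to 67.6) in the deepest. The share without Stra8 was higher in deeper cells. Summed transcripts of 47 meiosis genes went the other way, from 2119 CPM (the UMIs of a gene, or of a list, in a set of cells over all UMIs of that set, scaled to 1e6) in the shallowest group to 1385 CPM in the deepest. For a single cell, 0 UMIs at the median depth allow up to 115 CPM of Stra8 (3 counts). Of the cells with Stra8, 89 had a single UMI and together stood at 39.5 CPM, under the limit for 1 cell, so the line between the 2 sets of cells runs through low levels. The next 120 cells had 2 to 4 Stra8 UMIs (120 CPM), 96 had 5 to 9 (287 CPM) and 93 had 10 or more (649 CPM). Of the E13.5 somatic cells, 1.23% (0.909 to 1.63) had a UMI of Stra8, at a lower median depth of 10488 UMIs. The source of these UMIs (free RNA, mixed droplets or own transcripts) was not tested.

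**Figure D1:**
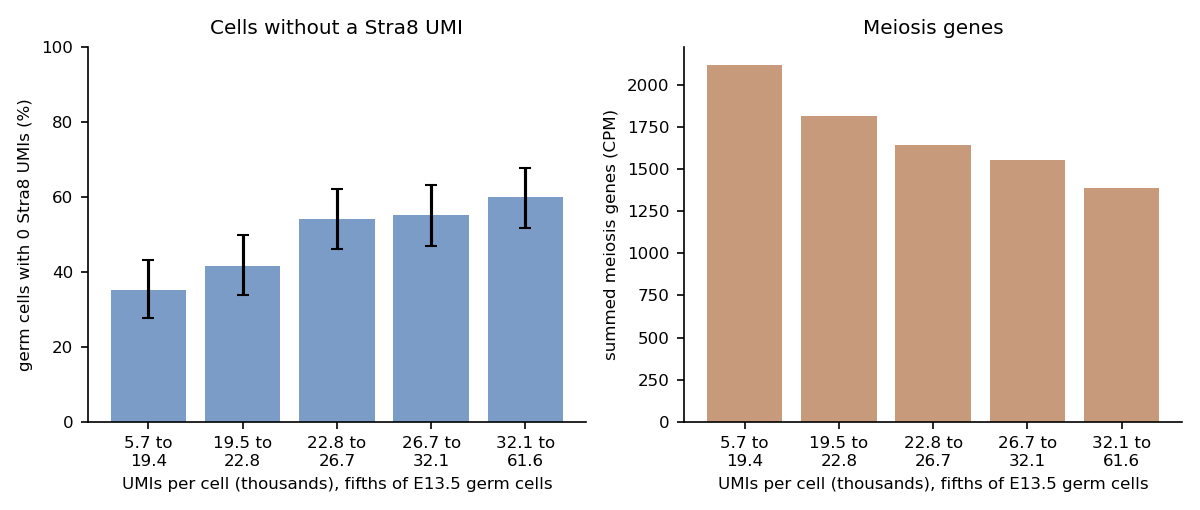
Left, the share of E13.5 germ cells with 0 Stra8 UMIs (%) in 5 groups of equal size by the UMIs of a cell, with exact binomial 95% intervals; right, the summed level of 47 meiosis genes (CPM) in the same groups. The share without Stra8 went from 35.0% in the shallowest group to 59.9% in the deepest, while the meiosis genes went from 2119 to 1385 CPM.

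The share of germ cells without Stra8 was 100% at E11.5 and 97.2% (95.6 to 98.3) at E12.5. By E13.5 it was 49.2%, and a day later 4.94% (4.10 to 5.88). At E12.5, 19 of 668 germ cells already had a Stra8 UMI. At E14.5, 118 of 2390 had none, at a median of 19321.5 UMIs against 15521.5 in those that had one.

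The label was checked against germ cell genes that the rule did not use. Of 20 such genes, 17 reached 50 UMIs over both sets and the level of 20 CPM in the higher one, and 16 of these were at least 4 times as high as in the somatic cells with separate intervals, as were 4.71% of all genes compared. Pou5f1, the core pluripotency factor of germ cells, stood at 177 CPM in the cells without Stra8 against 1.45 in the somatic cells. Dppa3 stood at 651 CPM against 5.58, Tfap2c at 68.6 against 0.519, and Kit, the receptor for stem cell factor, at 59.7 against 4.83. The 4 genes by which these cells are usually named had been used by the rule and are given as a description. Dazl stood at 390 CPM against 4.05 in the somatic cells, Ddx4 at 114 against 1.51, Dnd1 at 164 against 4.28 and Dppa5a at 1457 against 12.2.

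Markers of other cells of the gonad were present in the cells without Stra8. Of the 10 pre-granulosa markers, 9 could be compared and all 9 were lower than in the somatic cells by at least 4 times, as were 14% of all genes compared, with a sum of 140 CPM against 1633. The defining gene Foxl2 had 1 UMI in the cells without Stra8 and was at 0.130 CPM in the somatic cells themselves. All 9 of the interstitial markers that could be compared were lower, with a sum of 47.3 against 790 CPM. All 7 mesothelial markers that could be compared were lower, with a sum of 76.7 against 693 CPM, and all 7 of the erythroid markers, with 794 against 6653 CPM. The rule removed cells with Alas2 from the germ cells only, and 73 of the 3900 somatic cells had it. The erythroid difference is therefore given as a description. Of 6 endothelial markers compared 5 were lower, with a sum of 76.8 against 183 CPM. The other one, Pecam1, was at 52.9 CPM against 16.9, and at 41.5 CPM in E11.5 germ cells. None of the immune markers could be compared, and they summed to 8.23 against 75.9 CPM. Of the 385 cells, 20 (5.19%) had over 1000 CPM of pre-granulosa and interstitial markers, against 11 of 398 (2.76%) in the cells with Stra8. Of those 20 cells, 14 were among the 36 that had only 3 of the 6 germ cell genes, 5 among the 77 with 4, 1 among the 160 with 5 and none among the 112 with all 6. Just inside the threshold, the 41 E13.5 germ cells with 3 genes, whatever their Stra8, held 1431 CPM of the 6 genes and 214 CPM of Wt1, a transcription factor of the supporting lineage. Just outside it, 131 cells with 2 genes held 172 and 485 CPM. A doublet caller marked 25 of the 385 cells and 20 of the 398 with Stra8, against 95 of all 4842 cells of the library (1.96%). The part that mixed droplets play in the results was not tested, and the counts of genes below are given also without the cells rich in these markers. Of the 385 barcodes, 1 occurs in another library. UMIs of 4 Y-linked genes numbered 0 in both sets of E13.5 germ cells, but 17.8% of the E14.5 germ cells and 21.2% of the E14.5 somatic cells had one, against the XX label of that library.

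Compared with the germ cells that had Stra8 in the same ovary, the cells without it had lower levels of a short list of genes, led by genes of meiosis, and higher levels of a shorter one. Of 5231 genes that reached 50 UMIs over both sets and 20 CPM in the higher set, 30 (0.574%) were at least 2 times lower and 15 (0.287%) at least 2 times higher, with intervals that did not overlap. Since measured Stra8 and marker UMIs chose the cells, these counts and all comparisons of the cells are descriptions. The median log2 ratio of the genes compared was -0.04, and 90% of them lay between -0.53 and 0.49. On a scale that set the median ratio of all genes to 0, the split was 27 lower and 27 higher. Without the cells rich in somatic transcripts it was 30 lower and 21 higher, and 43 of the 45 genes were called again.

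**Figure D2:**
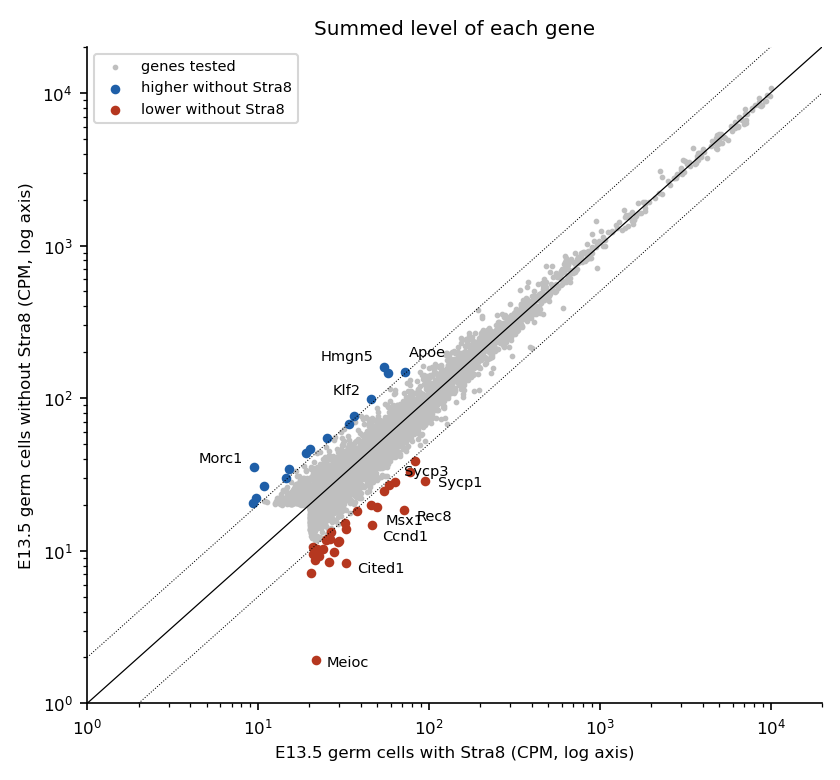
Level of each gene that could be compared, summed over the E13.5 germ cells with Stra8 (x axis, CPM, log scale) and without Stra8 (y axis, CPM, log scale), with Stra8 itself left out. The solid line marks equal levels and the dotted lines a ratio of 2; the 30 genes in red were lower and the 15 in blue higher in the cells without Stra8, with Meioc farthest from the line.

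Meioc, whose protein works with YTHDC2 to hold cells in meiotic prophase, differed most. It had 20 UMIs in the 385 cells without Stra8, 1.91 CPM (1.17 to 2.96), and 215 UMIs in the 398 cells with Stra8, 22.0 CPM (19.2 to 25.2). The log2 ratio was -3.52 (-4.26 to -2.86). The level in the cells without Stra8 overlapped that of the E12.5 germ cells, 1.06 CPM (0.656 to 1.62). It also overlapped that of cells with a single Stra8 UMI, 2.66 CPM (0.976 to 5.79), and stood well under the 12.6 CPM of cells with 2 to 4 UMIs and the 37.5 CPM of cells with 5 or more. At E14.5 Meioc was at 99.1 CPM.

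Of the 8 genes listed for meiotic entry that did not choose the cells, Meioc among them, 7 could be compared. All 7 had a log2 ratio below 0, and 4 were lower by the rule of size: Meioc, Rec8, Cited1 and Msx1. Rec8, the meiotic kleisin of cohesin, was at 18.4 CPM (15.9 to 21.2) against 71.3 (66.1 to 76.8), a log2 ratio of -1.96 (-2.19 to -1.72). Rec8 was also read in the somatic cells, at 21.6 CPM. Msx1, a homeobox factor and BMP target, was at 19.4 against 49.6 CPM, with 55.4 in the somatic cells. Cited1, a transcriptional coactivator, was at 8.33 against 32.9 CPM, with 2.81 in the somatic cells. Zglp1, a GATA-like factor that acts downstream of BMP in oogenesis, was at 73.8 against 111 CPM, a ratio below 2. Msx2 was at 49.5 and 49.7 CPM and did not differ beyond counting error. Of 12 BMP receptor and target genes that could be compared, only Msx1 passed.

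All 8 of the synaptonemal complex and axis genes that could be compared had log2 ratios below 0, with a median of -0.81, and 2 were lower by the rule. Sycp1, the transverse filament protein, was at 28.6 CPM (25.5 to 32.1) in the cells without Stra8 and 95.6 (89.6 to 101.9) in those with it. Sycp3, of the chromosome axis, was at 27.1 against 58.7 CPM. Syce2 of the central element was at 299 against 324 CPM, close to its 337 CPM at E12.5. Among the cohesins, the meiotic subunits Smc1b (214 against 399 CPM) and Stag3 (42.7 against 65.5) had ratios under 2, and the cohesin subunit Smc3 was at 314 against 332. None of the 7 recombination genes that could be compared passed, and all 7 had log2 ratios below 0, between -0.61 and -0.01.

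The promoters of Stra8, Sycp1 and Sycp3 are shown because the first gene defines the cells and the other two are the synaptonemal complex genes that were lower in them. Each is the 250 bases before the start site on the gene's strand, 5′ to 3′, from RefSeq on GRCm38.p6 (mm10), with the E-box CACGTG, a general site of basic helix-loop-helix factors, in capitals.
Stra8, chr6:34920698-34920947, + strand: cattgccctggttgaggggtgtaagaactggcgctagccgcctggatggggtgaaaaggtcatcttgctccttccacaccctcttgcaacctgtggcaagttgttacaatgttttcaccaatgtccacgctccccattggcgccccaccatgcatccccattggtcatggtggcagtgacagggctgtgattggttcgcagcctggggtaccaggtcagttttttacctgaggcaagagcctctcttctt
Sycp1, chr3:102936101-102936350, - strand: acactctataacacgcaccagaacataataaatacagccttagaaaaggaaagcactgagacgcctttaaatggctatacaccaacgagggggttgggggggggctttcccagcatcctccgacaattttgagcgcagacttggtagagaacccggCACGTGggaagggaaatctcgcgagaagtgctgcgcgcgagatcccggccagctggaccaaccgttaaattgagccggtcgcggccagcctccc
Sycp3, chr10:88459337-88459586, + strand: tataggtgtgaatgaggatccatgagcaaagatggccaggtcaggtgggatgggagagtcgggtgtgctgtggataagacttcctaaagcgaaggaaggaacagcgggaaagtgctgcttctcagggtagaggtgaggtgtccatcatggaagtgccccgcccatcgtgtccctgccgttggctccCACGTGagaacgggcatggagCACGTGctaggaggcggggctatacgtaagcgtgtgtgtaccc
CACGTG stands at -94 before Sycp1 and at -64 and -43 before Sycp3.

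Promoters of 250 bases before to 50 after the start were found for 25 of the 30 lower genes and for 10 of the 15 higher ones. Searched on both strands, CACGTG was in 5 of the 25 (20%: Slc25a31, Sycp1, Mxd4, Sycp3 and Ddx25) and in none of the 10, against 13.6% of the 4297 compared genes with a promoter and 8.09% of all 27025 genes in the table. CNCCTCAG, the motif reported for STRA8 with MEIOSIN, was in 4 of the 25 (16%: Tmx4, Sycp1, Pik3r3 and Card19) and in 1 of the 10 (Cmtm7), against 11.2% of compared genes and 9.12% of all genes. It lies at 32 after the start in Sycp1. A retinoic acid receptor repeat, AGGTCA given again after a spacer of 5 bases, was in none of either set and in 3 of all 27025 genes. CACGTG reads the same on both strands and was counted once, and a match describes the letters only.

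Other genes lower in the cells without Stra8 were not from the meiosis lists. Ccnd1, a D-type cyclin of the G1 phase, was at 14.8 CPM against 46.3, and Cdkn2d, an inhibitor of CDK4 and CDK6, at 24.7 against 54.3. Both were the members of the list of 14 G1 cyclins and inhibitors that passed lower. The cyclin Ccnd3 (160 against 105 CPM) and the kinase Cdk4 (346 against 203) had ratios above 1 and under 2. Tex101, a germ cell surface protein listed here with the male germline genes, was at 8.43 against 26.2 CPM and reached 227 CPM at E14.5. Ddx25, a germline RNA helicase, was at 9.57 against 21.0 CPM. The rest of the 10 largest ratios were Baz1a (7.18 against 20.4 CPM), Card19 (9.86 against 27.7), Larp1b (11.4 against 29.6) and Arhgdig (11.6 against 29.8).

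The 15 genes higher in the cells without Stra8 included regulators of transcription and chromatin. Morc1, which silences transposons in the germline, had the largest ratio, with 35.3 CPM (31.8 to 39.1) against 9.42. It was at 40.1 CPM at E11.5, 40.8 at E12.5 and 7.53 at E14.5. Hmgn5, a nucleosome-binding protein, was at 160 against 54.9 CPM. It was at 399.5 CPM at E11.5, 325 at E12.5 and 32.4 at E14.5, and the cells without Stra8 thus lay between the E12.5 cells and those with Stra8. Sox15, a SOX factor of primordial germ cells, was at 34.1 against 15.1 CPM, and Klf2, a Krüppel-like factor, at 98.4 against 46.1. Hey1, a Notch target, was at 26.5 against 10.8 CPM. Khdc1c was at 30.2 against 14.6 CPM, with 0.108 in the somatic cells. Aldh1a3, a retinaldehyde dehydrogenase that makes retinoic acid, was at 20.5 against 9.31 CPM, with 10.4 in the somatic cells. The remaining genes of the 10 largest ratios were Rgcc (46.7 against 20.3 CPM), Cmtm7 (43.5 against 19.0), Gm11747 (22.1 against 9.72) and Zfp593 (54.7 against 25.4).

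Some of the higher genes are also abundant in the somatic cells, and those values stand beside the result. The metallothionein Mt1 was at 146 CPM in the cells without Stra8, 57.8 in those with it and 287 in the somatic cells. Apoe, a lipid carrier, was at 149, 72.4 and 206 CPM. The E12.5 germ cells had 210 CPM of Mt1 and 236 CPM of Apoe. The part of free RNA or mixed droplets in these values was not tested. Xist, the RNA of X inactivation, was at 197 against 128 CPM in the germ cells and at 2366 in the somatic cells.

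None of the 14 pluripotency genes that could be compared reached a ratio of 2, and 12 of the 14 had ratios above 1, with a median log2 ratio of 0.51. Nanog was at 35.8 CPM (374 UMIs) against 18.5 (181 UMIs), a log2 ratio of 0.95 (0.69 to 1.21). Zfp42 was at 86.8 against 49.8 CPM, Utf1 at 580 against 383, Dppa4 at 142 against 94.3, and Pou5f1 at 177 against 132. Lin28a, an RNA-binding protein that blocks let-7 maturation, was at 66.1 against 72.3 CPM, within counting error. Of 8 genes of germ cell specification and survival, 7 had ratios above 1, and Sox15 passed. Tfap2c was at 68.6 against 45.8 CPM. The p53 gene Trp53 was at 162 against 92.5 CPM, a log2 ratio of 0.81 (0.69 to 0.93).

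Genes of cell division were close between the cells without and with Stra8. None of 18 DNA replication genes and none of 20 genes of G2 and mitosis passed in either direction. The replication genes summed to 1907 CPM without and 1957 with Stra8, and the mitosis genes to 2953 and 2791. Their medians of log2 ratios were -0.11 and 0.13.

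Within the E13.5 library the levels followed the number of Stra8 UMIs step by step. The 47 meiosis genes, without Stra8 and Dazl, summed to 1286 CPM (1264 to 1308) in cells with 0 Stra8 UMIs, 1544 with 1, 1766 with 2 to 4 and 2372 with 5 or more. The log2 ratio of the cells without Stra8 was -0.26 (-0.32 to -0.21) against cells with 1 UMI, -0.46 against 2 to 4, -0.88 against 5 or more, and -0.64 (-0.67 to -0.60) against all cells with Stra8. The 19 pluripotency genes, without Dppa5a, ran in the other direction, with 2285, 2076, 1903 and 1435 CPM. The log2 ratios were 0.14 (0.09 to 0.18), 0.26, 0.67 and, against all, 0.41 (0.38 to 0.44). The intervals of the cells with 0 and with 1 UMI did not overlap in either group of genes. Sycp1 went from 28.6 CPM in cells with 0 UMIs to 48.3, 61.8 and 140. Sycp3 did not differ between 0 and 1 UMI, at 27.1 and 27.5 CPM, and was at 45.1 and 82.9 above that. Dazl, which the rule used, went from 390 to 547, 575 and 667 CPM.

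**Figure D3:**
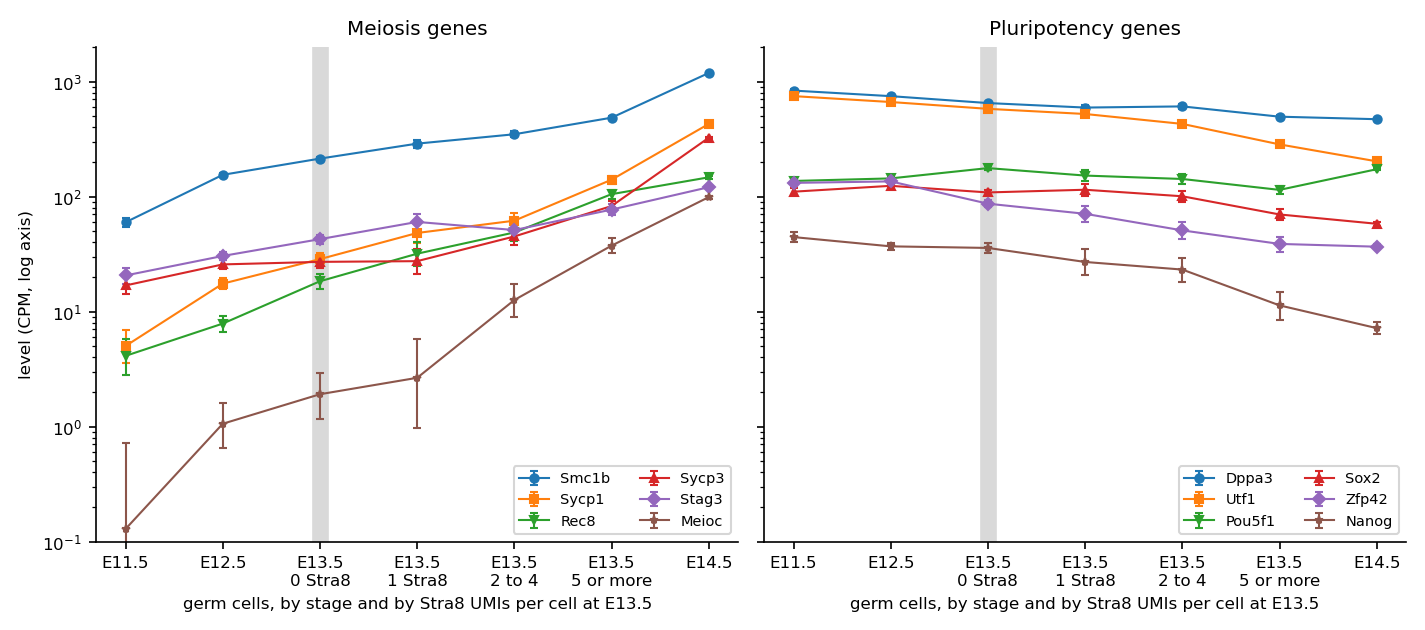
Levels (CPM, log axis) of 6 meiosis genes (left) and 6 pluripotency genes (right) in germ cells of each stage and, at E13.5, by the number of Stra8 UMIs in the cell, with exact Poisson 95% intervals; the grey bar marks the cells without Stra8, and the interval of Meioc at E11.5, from 1 UMI, runs off the axis. Meioc stood at 1.91 CPM in the cells without Stra8 and 37.5 in those with 5 or more UMIs, while Nanog stood at 35.8 and 11.3.

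Single cells overlapped between the sets. After each cell was thinned to 5000 UMIs, which left out none, the cells without Stra8 had a median of 6 UMIs of the meiosis genes, with the middle 80% between 3 and 11. The cells with Stra8 had a median of 10 (5 to 17), the E12.5 germ cells 6 (3 to 10), the E14.5 germ cells 23 and the somatic cells 1. Of the cells without Stra8, 64 (16.6%) were at or above the median of those with Stra8, against 79 of 668 germ cells (11.8%) at E12.5 and 2152 of 2390 at E14.5. For the pluripotency genes, 113 of 398 cells with Stra8 (28.4%) were at or above the median of the cells without it, which was 11 UMIs.

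**Figure D4:**
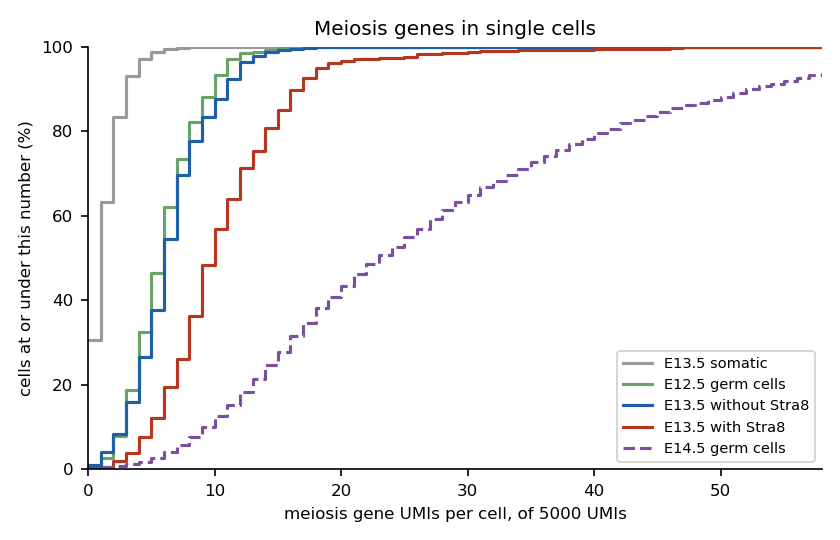
Cumulative share of cells (%) by the number of meiosis gene UMIs in a cell thinned to 5000 UMIs. The curve of the E13.5 cells without Stra8 (median 6) lies beside that of the E12.5 germ cells (median 6) and left of the cells with Stra8 (median 10) and of E14.5 (median 23).

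The share of thinned cells with a UMI gave the same order for Smc1b, but not for every gene. Pou5f1, together with a UMI of the meiosis genes, was read in 59.0% of the cells without Stra8 and 49.2% of those with it. Those shares were 53.0% at E12.5 and 48.6% at E14.5. Smc1b was read in 60.8% (55.7 to 65.7) of the cells without Stra8, 80.2% (75.9 to 84.0) of those with it, 50.9% at E12.5, 95.6% at E14.5 and 1.49% of the somatic cells. Before thinning, 95.1% of the cells without Stra8 had a UMI of Smc1b. Sycp1 was read in 15.8% (12.3 to 19.9) against 35.7% (31.0 to 40.6), with 0.179% in the somatic cells. Meioc was read in 2 cells, 0.519% (0.063 to 1.86), against 10.8% (7.93 to 14.3). Rec8 was read in 7.79% (5.32 to 10.9) against 29.6%, but 9.92% of the somatic cells also had a UMI. Msx1 was read in 6.49%, against 18.7% of the somatic cells. Neither share exceeded that of the somatic cells. These shares alone cannot tell whether the cells without Stra8 expressed Rec8 and Msx1, since the somatic cells may hold transcripts of their own. Whether the somatic UMIs of these genes are free RNA or their own transcripts was not tested. Nanog was read in 15.1% (11.6 to 19.0) against 8.29% (5.78 to 11.4) and 0.333% of the somatic cells. Morc1 was read in 15.6% (12.1 to 19.6) against 3.27% (1.75 to 5.52). Before thinning, Sycp1 was read in 41.6% and Meioc in 4.94% of the cells without Stra8, Rec8 in 33.8%, Msx1 in 36.6% and Morc1 in 47.3%, and Nanog in 227 of the 385 cells.

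Against the germ cells of E12.5, the cells without Stra8 differed in few genes. Of 5035 genes compared, 12 (0.238%) were at least 2 times higher and 10 (0.199%) at least 2 times lower, with a median log2 ratio of -0.03. With the median ratio set to 0 the split was 8 higher and 13 lower. No gene of the meiosis or pluripotency lists was among them. However, only 2 of 8 meiotic entry and 7 of 25 recombination genes could be compared. Of the synaptonemal complex and axis genes it was 8 of 11, and of the pluripotency genes 14 of 19. The meiosis genes summed to 1286 CPM against 1190 at E12.5, a log2 ratio of 0.11 (0.08 to 0.14), or 0.06 with the median ratio set to 0. The pluripotency genes summed to 2285 against 2496 CPM, a log2 ratio of -0.13 (-0.15 to -0.11). Smc1b was at 214 against 155 CPM, Sycp1 at 28.6 against 17.5, Rec8 at 18.4 against 7.88, and Zfp42 at 86.8 against 136. Rec8 was under the 20 CPM needed for a gene to be compared.

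Of the 22 genes that differed from E12.5, all but Hist1h2ag had a ratio in the same direction in the somatic cells of the same 2 libraries, where the interval of Rnf17 held 0. The linker histone genes Hist1h1b (41.7 against 152 CPM, log2 -1.87) and Hist1h1e (37.6 against 117, log2 -1.64) were lower, and in the somatic cells the log2 ratios of E13.5 to E12.5 were -2.73 and -2.34. Syap1 was at log2 -1.06 in the germ cells and -1.09 in the somatic cells, and Jund, an AP-1 factor, at 1.13 and 1.11. Hbb-bs, an adult globin, was at 120 against 30.4 CPM in the germ cells and at log2 1.20 in the somatic cells. Plagl1, an imprinted zinc finger gene, was at 30.4 against 13.2 CPM (log2 1.21), with 0.33 in the somatic cells. Xaf1 was at 29.1 against 8.84 CPM (log2 1.72), with 0.64 in the somatic cells. Hist1h2ag had a log2 ratio of 1.05 in the germ cells and -0.09 in the somatic cells, with an interval there that held 0. Without the cells rich in somatic transcripts 15 of the 22 were called, and the log2 ratio of Xist went from 1.04 to 0.12. The part of the library in these differences cannot be told apart from that of the stage.

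**Figure D5:**
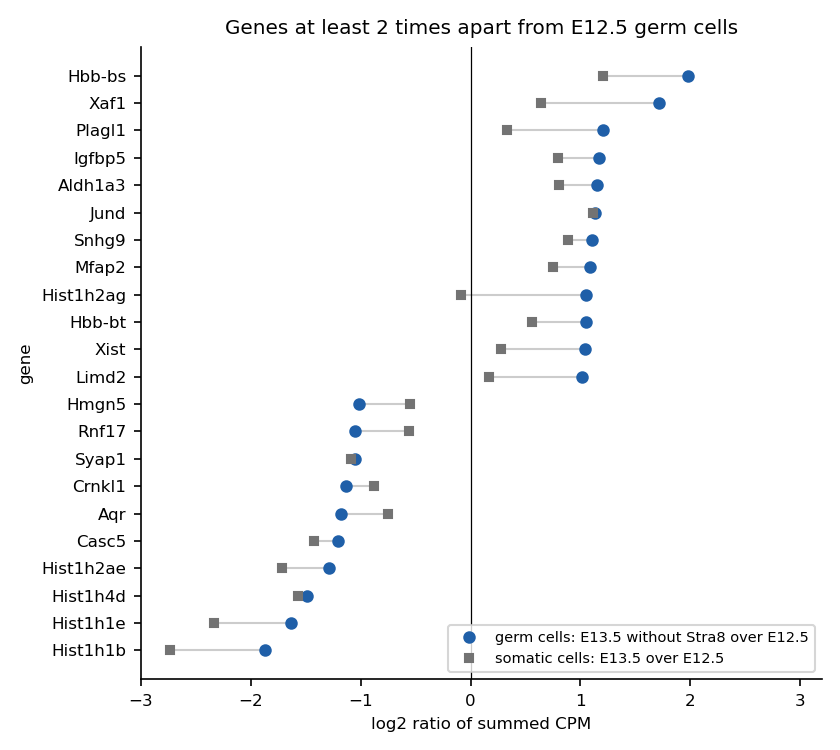
Log2 ratio (x axis) of the 22 genes (y axis) that differed at least 2 times between E13.5 germ cells without Stra8 and E12.5 germ cells (blue circles), with the ratio of E13.5 to E12.5 somatic cells for the same genes (grey squares). Hist1h1b stood at -1.87 and -2.73, Jund at 1.13 and 1.11, and Hist1h2ag at 1.05 and -0.09.

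Against the germ cells of E14.5, the difference was broad. Of 5708 genes compared, 633 (11.1%) were at least 2 times lower and 245 (4.29%) at least 2 times higher in the E13.5 cells without Stra8, with a median log2 ratio of -0.18. On the scale with the median ratio set to 0, which moved all log2 ratios by 0.23, the split was 429 lower and 451 higher. The meiosis genes summed to 1286 against 5008 CPM, a log2 ratio of -1.96 (-1.99 to -1.94), or -1.73 on that scale. The 2 sets differed in depth, with medians of 26041 UMIs per cell and 15630 at E14.5. With only germ cells of 15000 to 35000 UMIs, 299 and 1285 cells, 627 genes were called, 604 of the 878 among them. Without the 425 E14.5 cells that had a Y-linked UMI, 915 genes were called, 868 of the 878 among them. Without the cells rich in somatic transcripts 924 were called, 666 lower and 258 higher, with 859 of the 878 among them.

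Of the synaptonemal complex and axis genes, 9 of 11 were lower than at E14.5, among them Sycp1 (28.6 against 429 CPM), Sycp2 (0.574 against 28.7) and Sycp3 (27.1 against 325). Of 11 recombination genes compared, 7 were lower. Prdm9, which places recombination hotspots, had 2 UMIs in the cells without Stra8 and was at 32.9 CPM at E14.5. Spdya, a CDK2 activator at meiotic telomeres, was at 0.383 against 49.7 CPM, and the recombinase gene Dmc1 at 10.1 against 47.9. Lypd4 had 0 UMIs in the cells without Stra8 and was at 28.3 CPM at E14.5. Taf7l, a germ cell TFIID subunit, was at 2.01 against 157 CPM, and Figla, an oocyte transcription factor, at 0.670 against 40.3. The class I histocompatibility genes H2-D1 (0.383 against 55.2 CPM) and H2-K1 (1.05 against 81.7) were lower as well. In the somatic cells of the same libraries the log2 ratios of E13.5 to E14.5 were -1.89 for H2-D1 and -2.67 for H2-K1. The class II gene H2-Ab1 was at 0.287 against 30.0 CPM. The rest of the 10 largest ratios were Inca1 and 4930524B15Rik.

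Of 14 pluripotency genes, 8 were higher than at E14.5, all 14 had ratios above 1, and the sum was 2285 against 1244 CPM, a log2 ratio of 0.88 (0.86 to 0.90). Nanog was at 35.8 against 7.19 CPM and Esrrb at 24.0 against 5.49. Pou5f1 did not differ beyond counting error, with 177 and 173 CPM. Of the 8 specification and survival genes, 5 were higher, with Tfap2c at 68.6 against 22.2 CPM and Prdm1 at 26.7 against 11.1. The largest ratios belonged to Aldh1a3 (20.5 against 2.78 CPM), Xaf1 (29.1 against 4.04) and Klf2 (98.4 against 13.9). Klf2 was also higher in E13.5 than in E14.5 somatic cells, by a log2 ratio of 2.21, and Aldh1a3 by 0.25. Frat2, Hey1, Gm11747, Etv4, Khdc1c, Sox15 and Pbld2 followed, with Etv4 at 26.1 against 4.95 CPM and Sox15 at 34.1 against 6.62.

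The cells without Stra8 were also placed between the stages with genes chosen from E12.5 and E14.5 alone. Between those germ cells 175 genes were at least 4 times higher and 31 at least 4 times lower at E14.5, of 5684 compared. The 175 had a median level of 5.91 CPM at E12.5, 7.95 in the E13.5 cells without Stra8, 10.6 with 1 Stra8 UMI, 12.6 with 2 to 4, 18.8 with 5 or more and 38.6 at E14.5. The 31 had medians of 39.0, 33.8, 23.1, 19.5, 12.6 and 7.53 CPM. Of the 175 genes, 155 were within 2 times of the E12.5 level in the cells without Stra8 and 49 in the cells with Stra8. Of the 31, 30 and 9 were.

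Against the somatic cells of the same library, 303 of 6429 genes (4.71%) were at least 4 times higher and 903 (14%) at least 4 times lower, with the 6 rule genes, Alas2 and Stra8 left out. With the median ratio set to 0, a move of 0.44 on the log2 scale, the split was 501 higher and 698 lower. Without the cells rich in somatic transcripts 1329 were called, 327 higher and 1002 lower, with all 1206 among them. The largest ratios were of Foxr1, a forkhead gene (46.2 against 0.130 CPM), Khdc1c (30.2 against 0.108), Gm11747 (22.1 against 0.0866), Zfp42 (86.8 against 0.454), BC048679, Usp26, 1700019D03Rik, Isl2, Dppa2 and Gm6792. Of genes of the later meiotic chromosome, 7 of the 8 synaptonemal complex and axis genes compared were at least 4 times higher than in the somatic cells, with Sycp3 at 27.1 against 0.584 CPM and Syce1 at 30.5 against 0.433. All 7 of the germline RNA and transposon control genes compared were higher, among them Stk31 (114 against 1.32 CPM), Tex19.1 (95.4 against 1.43) and Piwil2 (23.0 against 0.498). Of 20 genes of G2 and mitosis, all had ratios above 1 and 3 passed, Ccnb2, Bub1 and Cenpf. The lower genes with the largest ratios were S100a9, S100a8, Mhrt, Dcn, Mef2c, Igfbp7, A230065H16Rik, Islr, Acta2 and Ecscr. Dcn, a matrix proteoglycan of stroma, was at 1.72 against 60.4 CPM. Cdkn1c, a CDK inhibitor, was at 122 against 1475 CPM, and Xist at 197 against 2366.

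Within the cells without Stra8, levels are given by the number of the 6 germ cell genes read, which the rule used and which moved with depth, from a median of 21354.5 UMIs in cells with 3 to 27223.5 in cells with 6. The summed meiosis genes were at 804 CPM (742 to 869) in the 36 cells with 3 of the 6 germ cell genes, 1209 in the 77 with 4, 1297 in the 160 with 5 and 1429 (1389 to 1470) in the 112 with all 6. Cells rich in somatic transcripts were 14 of the 36 with 3 genes and none of the 112 with 6, and the part of depth and of these cells in the difference was not tested. Hmgn5 ran the other way from 4 to 6 genes, with 204, 166 and 122 CPM, and was at 183 in the cells with 3. Aldh1a3 was at 36.2 CPM (30.0 to 43.3) in cells with all 6 genes and 12.9 (9.74 to 16.7) in those with 5. When the cells were divided at their median depth, without the marker number, the meiosis genes were at 1328 CPM (1292 to 1364) in the shallower and 1260 (1233 to 1288) in the deeper cells, and the pluripotency genes at 2269 and 2294.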

How the data were processed

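The authors deposited 1 table of log values on the natural log scale, ln(1 + UMIs / cell total × 10000), of 19321 genes in 19387 cells; Cell Ranger 2.2.0 and mm10 are named per the submitters' processing notes, and their cell filters are not given in the sources used here. Values were turned back into UMIs: all 69792436 values above 0 were whole multiples of 1 UMI within 1e-06 of their size. The tests were planned for counts, and these UMIs were used.

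For each class of cells the UMIs of a gene were added up, scaled to CPM, and given exact Poisson 95% intervals; ratios have the exact binomial interval of the split of UMIs, and shares Clopper-Pearson intervals. A gene was called at 50 UMIs over both classes, 20 CPM in the higher, a ratio of 2 (4 against somatic cells) and separate intervals. The rule was checked on simulated Poisson counts, with changes above that ratio and no spread between cells or libraries. That check cannot speak to error from such spread. Genes named are those of 23 lists and the 10 largest ratios in each direction; the members and lists were chosen with earlier results of these data known. UMIs come from 3′ ends, so levels of different genes are not compared. Doublets were called with scanpy 1.11.5 and kept. Alternatives were other marker minimums, doublets or cells rich in somatic transcripts left out, a depth window, means over cells, a median-of-ratios scale, other thresholds and other thinning. Versions: Python 3.11.15, numpy 2.4.6, scipy 1.17.1.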

Additional observations from a re-analysis of the deposited data

How the results depend on the processing

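The share of E13.5 germ cells without Stra8 was 55.9% with at least 2 of 6 markers, which admits cells at the somatic level of the markers, and 67.6% when Stra8 was read after thinning to 5000 UMIs, which hides low levels. The 45 genes that differed from cells with Stra8 became 370 with no CPM minimum and 357 with a ratio of 1.5, the 22 against E12.5 became 248 and 204, and the 878 against E14.5 became 2762 and 2172. The 1206 against somatic cells became 3597 with no CPM minimum and 2787 with a ratio of 2. The meiosis log2 ratio against cells with Stra8 was -0.67 with 15000 to 35000 UMIs per cell, -0.68 as a mean over cells, -0.57 on the median-of-ratios scale and -0.67 with Stra8 read after thinning. The pluripotency ratio was 0.47 on the median-of-ratios scale, 0.44 with Stra8 read after thinning and 0.44 without cells rich in somatic transcripts, an alternative added after the data were seen, as was leaving out E14.5 cells with a Y-linked UMI. The share of cells without Stra8 that had a UMI of Smc1b was 31.9% thinned to 2000 UMIs and 95.1% unthinned. Of the values of 114 named genes under the alternatives, 691 stayed within their interval or past the rule and 86 moved. None changed direction. No paired analysis was possible because each stage has 1 library. With 1 library a stage, the spread between embryos is unknown.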

Other observations

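The genes that varied most between the cells without Stra8 were ranked after their values were seen, in the 365 cells not rich in somatic transcripts, thinned to 5000 UMIs, by the ratio of variance to mean (the Fano factor, with a median of 1.04 over the 2809 genes with a mean of at least 0.2 UMIs, which leaves out low genes such as Meioc and Sycp1). Malat1, a nuclear RNA, had 10.7 and the mitochondrial gene mt-Co3 9.20, against 5.25 and 4.30 in cells with Stra8. Pbld2 had 6.79 against 4.16, with a UMI in 5.75% of the cells without Stra8. Xist had 3.85 against 2.84, with a UMI in 20.8%. Mt2, a metallothionein, had 3.64 against 2.11.

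Germ cells of the other stages could be divided by Stra8 in the same way. At E14.5 the 118 germ cells without Stra8 had 1776 CPM (1723 to 1831) of the 47 meiosis genes against 5210 in the 2272 with it, and 2334 against 1176 CPM of the 19 pluripotency genes. Of those 118 cells, 22 (18.6%) had over 1000 CPM of pre-granulosa and interstitial markers, and 26 had a Y-linked UMI. At E12.5 the 19 germ cells with Stra8 had 1589 CPM (1485 to 1697) of the meiosis genes against 1179 in the 649 without it.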
